A study of Mus musculus with 6 samples.

Results

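The cytosolic ribosomal protein genes encode the proteins that, together with ribosomal RNA, form the large and the small subunit of the ribosome. They were taken from RNA-seq of mouse skeletal muscle as every gene whose symbol is Rpl or Rps, a number and at most one closing letter a, l or x, and that was not listed at 0 in all 6 libraries. Of 53342 genes in the deposited table, 79 symbols had this form and 1 of them, Rpl10l, was at 0 in every library. The remaining 78 genes comprised 47 of the large and 31 of the small subunit, among 30413 genes above the floor in at least 1 library. Of these 78, 76 entered the test, 45 of the large and 31 of the small subunit. The untested members were Rpl39l and the processed pseudogene Rpl6l, whose levels were below the minimum. The form of the symbol leaves out some ribosomal protein genes, such as Rplp0, Rpsa, Fau and Rpl36al, which are described separately. It takes in 3 genes annotated as processed pseudogenes, Rpl6l, Rpl32l and Rps4l.

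The series examined how the loss of hepatic insulin signalling and of hepatic follistatin affects the body, here in skeletal muscle. There were 3 genotypes with 2 libraries each. LTKOFstL/L mice lacked, in liver, Irs1 and Irs2, which carry the signal of the insulin receptor, and also Fst, the follistatin gene, with Fst floxed over exons 2 to 5. LDKO mice lacked Irs1 and Irs2 in liver. In both, the floxed alleles were cut by a Cre recombinase expressed from the albumin promoter, which is active in hepatocytes and not in muscle. Control mice were labelled as Control and as Loxp, with no Cre named. All mice were male. Every library was labelled with a high fat diet, whereas the text of the series names chow from week 5 to week 16, so the diet is not settled. The deletions were made in liver, so the level of the deleted genes in muscle does not check the genotype labels. The labels do not say that both libraries of a genotype came from separate animals, and p-values therefore measure only the spread between these samples.

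The cytosolic ribosome translates the mRNAs of nuclear genes, and most of its proteins are needed in equal amounts, so their genes are commonly expressed together. Their mRNAs start with a terminal oligopyrimidine stretch, the TOP motif, through which translation of the whole set is regulated by the kinase complex mTORC1, with LARP1 as a binding protein. mTORC1 lies downstream of insulin and amino acids, and new ribosomes are part of muscle growth. Follistatin, a circulating protein secreted by liver, binds activins and myostatin, which restrain muscle growth. Skeletal and cardiac muscle also express Rpl3l, a muscle form of the large subunit protein Rpl3.

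The members are spread over the genome, with the 76 tested genes on 19 chromosomes and at most 13 on any of them. Some of them hold the pyrimidine word CTTTC near the start site, and the following windows show members with and without this exact word. They hold the 40 bases before and the 20 bases from the annotated start, taken from RefSeq promoters of GRCm38.p6, read along the gene from 5′ to 3′. Capitals mark the word CTTTC. Other pyrimidine stretches are not marked, so a window without capitals can still hold one. The window of Rps6 reads ctctttttc from the annotated start, all pyrimidines, without the word CTTTC. The first group holds members with the word that were among those with the largest differences between genotypes.
Rps27, chr3:90213629-90213688, minus strand: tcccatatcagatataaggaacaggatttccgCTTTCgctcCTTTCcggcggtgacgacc
Rpl28, chr7:4792925-4792984, plus strand: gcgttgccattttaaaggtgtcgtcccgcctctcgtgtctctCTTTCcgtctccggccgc
Rpl38, chr11:114668540-114668599, plus strand: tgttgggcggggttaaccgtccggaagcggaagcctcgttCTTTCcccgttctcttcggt
The next group is shown because it holds Rps6, the phosphorylated protein of the small subunit, and Rps27l and Rpl10, whose library values departed from the other members, and Rpl3l, the muscle form of Rpl3.
Rps6, chr4:86857348-86857407, minus strand: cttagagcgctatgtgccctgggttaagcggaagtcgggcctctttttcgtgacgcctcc
Rps27l, chr9:66946046-66946105, plus strand: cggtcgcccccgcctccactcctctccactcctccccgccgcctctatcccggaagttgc
Rpl10, chrX:74270776-74270835, plus strand: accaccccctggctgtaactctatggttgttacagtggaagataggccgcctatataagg
Rpl3l, chr17:24727786-24727845, plus strand: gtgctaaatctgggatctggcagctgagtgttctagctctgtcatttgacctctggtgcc

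RefSeq promoters were matched for 56 of the 76 tested members, in 68 windows. CTTTC stood on the strand of the gene in 20 of the 68 windows (29.4%), against 2663 of 32851 windows of all promoters of the same length (8.11%). On the opposite strand it stood in 4 of the 68 windows (5.88%), against 7.21% of all windows. The word CGGAAG, the core of sites for ETS family factors such as GABP, stood on either strand in 17 of the 68 windows (25%), against 6.62% of all windows. These matches describe letters in the windows and not transcription start sites or binding in these muscles.

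The deposited values are log2 expression centred for each gene on its median over the 6 libraries. A value of 0 is therefore the gene's own median, and values compare libraries and not genes. The number of reads behind a value is not known. The precision of a value was read from the difference between both libraries of a genotype. The level of a gene could be bracketed from the rounding of the stored numbers, and 75 of the 78 members had a log2 level of at least 8 in their lowest library. All 10 skeletal muscle markers reached that level in every library. Of 14 pancreatic acinar markers, all were tested, and their median value was −1.92 and −2.07 in LTKOFstL/L, 1.36 and −1.57 in LDKO, and 12.58 and 8.59 in Control. Both Control libraries thus held high levels of these markers, and 14 of the 14 acinar markers fell in LTKOFstL/L and 13 of 14 in LDKO, each against Control. Their part in the ribosomal protein values was not tested.

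Ribosomal protein genes moved together from library to library, and the libraries of a single genotype lay on opposite sides of the gene medians. The median over the 76 tested members was −0.21 in LTKOFstL/L 1 and 0.08 in LTKOFstL/L 2. It was 0.47 in LDKO 1 and −0.13 in LDKO 2. It was 0.21 in Control 1 and −0.10 in Control 2. Every genotype thus had 1 library with a median above 0 and 1 with a median below it, and the ranges of the genotypes overlapped. Centring on the gene median puts as many libraries above 0 as below it, so the sign alone does not mark a high level. LTKOFstL/L 2, at 0.08, lay near 0.

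Nearly all members took part. In LTKOFstL/L 1, 73 of 76 members were below their own median, while 69 were above it in LTKOFstL/L 2. In LDKO 1, 75 members were above their median and 74 were below it in LDKO 2. In Control 1, 72 were above, and 69 were below in Control 2. LDKO 1 was the highest library for 68 of the 76 members, and LTKOFstL/L 1 was the lowest for 58. The lowest library of the other members was LDKO 2 for 15 and Control 2 for 3. How often all tested genes were highest or lowest in each library was not computed. Over all 16326 tested genes, LDKO 1 had the widest quartiles, from −0.26 to 0.23. They ran from −0.18 to 0.20 in LTKOFstL/L 1 and from −0.14 to 0.13 in Control 1.

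**Figure D1:**
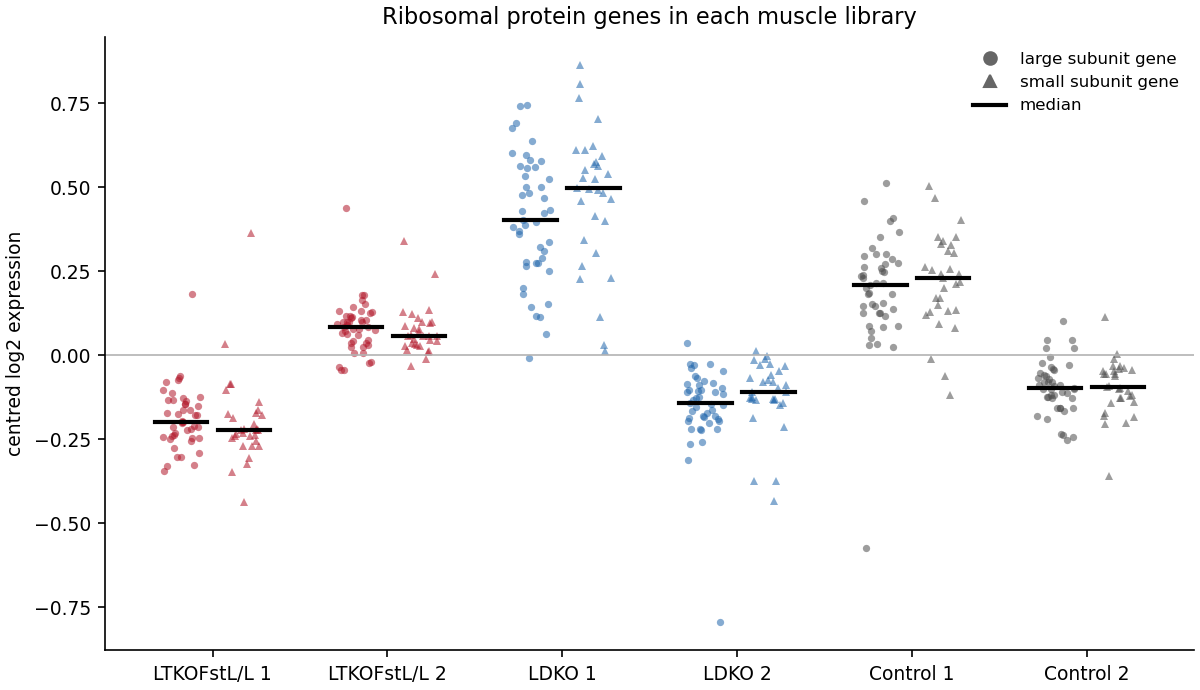
Centred log2 expression of the tested ribosomal protein genes of the large and small subunit in each of the 6 libraries, 1 point per gene. The median member lies at 0.47 in LDKO 1 and at −0.21 in LTKOFstL/L 1, and the libraries of each genotype lie on opposite sides of 0.

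The difference between both libraries of a genotype, library 1 minus library 2, had a median over the members of −0.28 in LTKOFstL/L, 0.56 in LDKO and 0.30 in Control. It was positive in 1 of 76 members in LTKOFstL/L, in all 76 in LDKO and in 73 in Control. Over all 16326 tested genes it was positive in 50.9% in LTKOFstL/L, 49.8% in LDKO and 50.4% in Control. The largest of the 3 differences within a genotype exceeded the range of the 3 genotype means in 73 of the 76 members (96.1%), against 59.1% of all tested genes. The median ratio of that difference to that range was 2.37 in the members and 1.19 in all tested genes. For nearly all ribosomal protein genes, the largest difference within a genotype was therefore wider than the range of genotype means. That largest difference was the LDKO one in every member but Rpl3. The other genotypes could differ less: for Rps27 the LTKOFstL/L difference was −0.45, against a range of 0.59. Single libraries also vary more than means of 2 libraries.

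The genes of both subunits ordered the 6 libraries alike, with LDKO 1 highest and LTKOFstL/L 1 lowest. Large subunit genes had medians of −0.20 and 0.09 in LTKOFstL/L 1 and 2, 0.40 and −0.14 in LDKO 1 and 2, and 0.21 and −0.10 in Control 1 and 2. Small subunit genes had medians of −0.22 and 0.06 in LTKOFstL/L, 0.50 and −0.11 in LDKO, and 0.23 and −0.09 in Control, in the same order of libraries. The medians of the subunits stood 0.10 apart or less in each library.

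The likeness of a member to the others was measured as Pearson's r over the 6 libraries between its values and the median of the other members. It is a description over 6 points that come from the same libraries. Its median was 0.98, and 63 of the 76 members were above 0.9. The members below 0.5 were Rps4l with an r of 0.08, Rpl30 with 0.18, Rps27l with 0.24 and Rpl10 with 0.44.

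**Figure D2:**
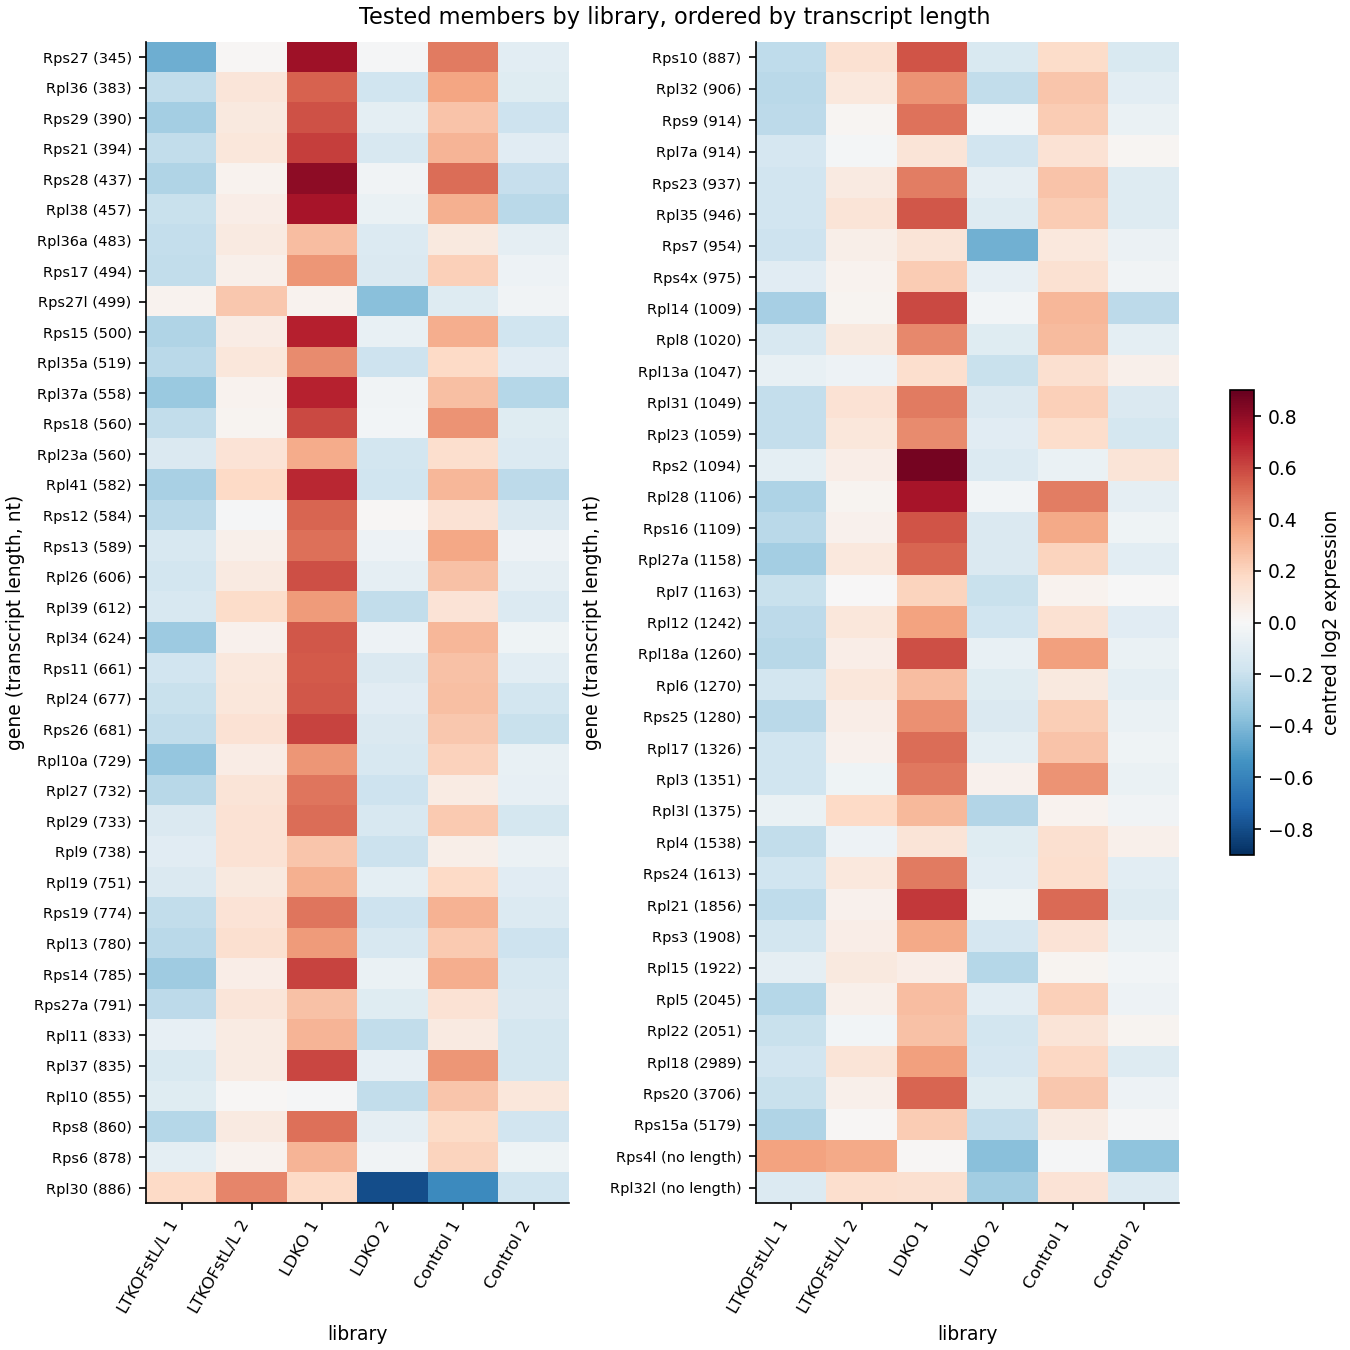
Centred log2 expression of 75 of the 76 tested members (rows, ordered by transcript length in nt over both panels, with Rps4l and Rpl32l, which have no length here, last) in the 6 libraries (columns). LDKO 1 is the highest library for 68 of the 76 tested members, and Rpl30, Rps4l, Rps27l and Rpl10 depart from the common pattern.

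Transcript length moved with these differences. Member transcripts were 345 to 5179 nt long with a median of 860 nt, and 48 of the 75 with a length were under 1000 nt. Among 74 members with a length and a test, Spearman's rho of length with the library 1 minus library 2 difference was 0.32 in LTKOFstL/L, −0.36 in LDKO and −0.37 in Control. Among 7057 other protein-coding genes at a log2 level of at least 8 in every library, it was 0.41 in LTKOFstL/L, −0.47 in LDKO and −0.16 in Control.

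Transcripts under 600 nt were 17 members and 79 other genes. Their median difference between LTKOFstL/L libraries was −0.30 in the members and −0.31 in the other genes. Between LDKO libraries it was 0.66 in the members and 0.53 in the other genes. Between Control libraries it was 0.44 in the members and 0.29 in the other genes. Of the 79 other genes, 7 had a symbol of a cytosolic or mitochondrial ribosomal protein gene; in the 72 without such a symbol, a set chosen after seeing the data, the medians were −0.31 in LTKOFstL/L, 0.52 in LDKO and 0.29 in Control. These short transcripts thus differed between the libraries of a genotype in the same direction as the members. In the class from 1000 nt up to 2000 nt, with 22 members and 1586 other genes, the LDKO difference was 0.55 in the members and 0.22 in the other genes. There the LTKOFstL/L difference was −0.27 in the members and −0.10 in the others, and the Control difference was 0.28 in the members and 0.06 in the others. The members of that class differed more between libraries than other transcripts of like length, in the same direction. These values stand beside the library pattern, and the part of transcript length in it was not tested.

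**Figure D3:**
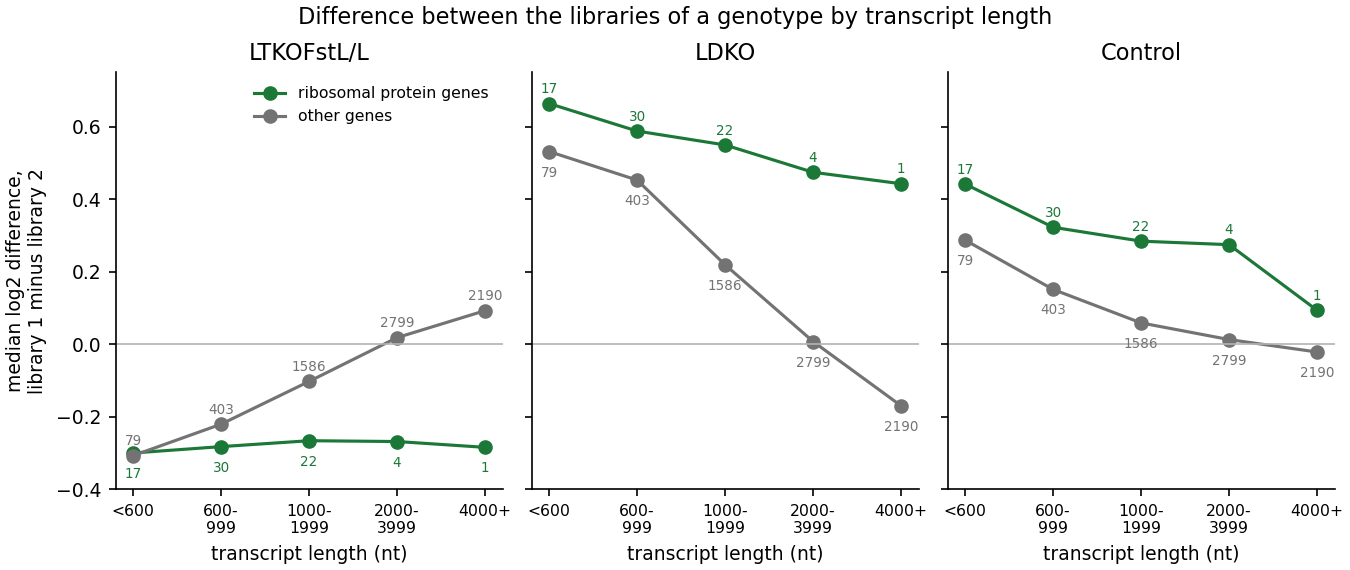
Median log2 difference between both libraries of a genotype, library 1 minus library 2, by transcript length in nt, for tested ribosomal protein genes and for other protein-coding genes at a log2 level of at least 8 in every library; numbers beside the points are numbers of genes. Under 600 nt both lines lie close together in LTKOFstL/L (−0.30 and −0.31); the last 2 classes hold only 4 members and 1 member.

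LTKOFstL/L muscle had a lower mean of most ribosomal protein genes than Control muscle, but no member passed the test. Of the 76 members, 67 had a lower and 9 a higher mean, with a median log2 change of −0.12, against 0.00 over all tested genes. The median was −0.11 for the large and −0.14 for the small subunit. In limma with Benjamini-Hochberg adjustment over 16326 genes, 0 of 76 members were called, against 2.09% of all tested genes in this comparison, 341 genes in all. By direction, 0 members rose, against 0.839% of all tested genes, and 0 fell, against 1.25%. At an unadjusted p under 0.05 there were also 0 members, against 15.2% of all tested genes. The standard error of a member's change was 0.15 to 0.33 with a median of 0.23, which is larger than the median change. No member reached a 2-fold difference. The median change was 0.03 without Control 1, 0.02 without LTKOFstL/L 1 and −0.29 without Control 2, so its sign depended on these libraries.

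The most negative change in LTKOFstL/L against Control was that of Rps27, and Rpl28, Rpl21 and Rpl3 were among the next. Rps27, a zinc-finger protein of the small subunit, stood at −0.44 and 0.01 in LTKOFstL/L, against 0.47 and −0.09 in Control. Its log2 change was −0.40 ± 0.31 (SE, n = 2 each; limma adjusted p = 0.608), and the genotypes overlapped. The large subunit genes Rpl28, Rpl21 and Rpl3 had changes of −0.31, −0.29 and −0.28, each with an adjusted p above the threshold of 0.05.

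At the other end, Rpl30 had the most positive change in LTKOFstL/L against Control. This protein of the large subunit stood at 0.18 and 0.44 in LTKOFstL/L, against −0.57 and −0.18 in Control. Its change was 0.69 ± 0.31 (SE, n = 2 each; limma adjusted p = 0.370). The libraries did not overlap, yet the change did not pass the test. Next came Rps4l with 0.54 ± 0.29, Rps27l with 0.21 ± 0.18, Rpl3l with 0.06 ± 0.21 and Rpl11 with 0.04 ± 0.21. With either LDKO library left out, the adjusted p of Rpl30 was 0.0721.

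The libraries of LTKOFstL/L lay wholly above those of Control in 3 members, Rpl30, Rps27l and Rps4l, against 25.2% of all tested genes. They lay wholly below in 6 members, among them Rpl10, Rpl13a, Rpl22, Rpl4 and Rpl7a, against 24.8% of all tested genes. Rpl4 and Rpl7a are core proteins of the large subunit. As a share of 76 members these are 3.95% and 7.89%, below the share of all genes in each direction.

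LDKO muscle had a slightly higher mean of most ribosomal protein genes than Control muscle, and again no member passed the test. Of the 76 members, 65 had a higher and 11 a lower mean, with a median log2 change of 0.08, against 0.00 over all tested genes. The median was 0.08 for the large and 0.12 for the small subunit. In limma 0 of 76 members were called, against 0.282% of all tested genes in this comparison, 46 genes in all. By direction, 0 members rose, against 0.0368% of all tested genes, and 0 fell, against 0.245%. At an unadjusted p under 0.05 there were 0 members, against 6.72% of all tested genes. The sign of the median depended on LDKO 1, the library in which 68 members were highest: without it the median change was −0.19, and without LDKO 2 it was 0.39. Without Control 2 it was −0.06, and without Control 1 it was 0.26.

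Rps2, a small subunit protein at the mRNA entry of the ribosome, had the most positive change in LDKO against Control. It stood at 0.86 and −0.12 in LDKO, against −0.06 and 0.11 in Control. Only LDKO 1 was high, and the change was 0.34 ± 0.30 (SE, n = 2 each; limma adjusted p = 0.865). Without LDKO 1 the change was −0.15, and without LDKO 2 it was 0.84 (adjusted p = 0.0878). Rpl37a, Rpl38, Rps12 and Rpl14 followed with 0.32, 0.30, 0.27 and 0.25. Rpl38 is known in mouse embryos for its role in translation of Hox mRNAs.

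Rpl10, which joins the large subunit late in its maturation, had the most negative change in LDKO against Control. It stood at −0.01 and −0.22 in LDKO, against 0.25 and 0.10 in Control. The libraries did not overlap, and the change was −0.29 ± 0.15 (SE, n = 2 each; limma adjusted p = 0.793). Rpl10 was the only member whose libraries lay wholly below those of Control, against 17% of all tested genes, and 0 lay wholly above, against 16.4% of all tested genes. Rps7, Rpl13a, Rpl7a and Rpl15 followed with changes of −0.18, −0.12, −0.10 and −0.10.

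LTKOFstL/L muscle, set against LDKO muscle, had the largest median difference of the 3 comparisons. Of the 76 members, 68 had a lower and 8 a higher mean in LTKOFstL/L, with a median log2 change of −0.22, against 0.01 over all tested genes. The median was −0.19 for the large and −0.27 for the small subunit. In limma 0 of 76 members were called, against 2.51% of all tested genes in this comparison, 410 genes in all. By direction, 0 members rose, against 1.18% of all tested genes, and 0 fell, against 1.34%. At an unadjusted p under 0.05 there were 0 members, against 19% of all tested genes. Without LDKO 1 the median change was 0.06, and without LDKO 2 it was −0.51.

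Rps27, Rps28, Rpl28 and Rpl37a had the most negative changes in LTKOFstL/L against LDKO. Rps27 stood at −0.44 and 0.01 in LTKOFstL/L, against 0.76 and −0.01 in LDKO, with a change of −0.59 ± 0.31 (SE, n = 2 each; limma adjusted p = 0.358). LDKO 1 alone was high for Rps27. Rpl30 had the most positive change, at 0.18 and 0.44 in LTKOFstL/L, against 0.18 and −0.79 in LDKO. Its change was 0.62 ± 0.31 (adjusted p = 0.347).

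The outcome for Rpl30 and Rps2 in this comparison hung on 1 LDKO library. Without LDKO 1, Rpl30 was called with a change of 1.10 (limma adjusted p = 0.0366), and without LDKO 2 its change was 0.13 (adjusted p = 0.748). Without LDKO 2, Rps2 was called with a change of −0.88 (adjusted p = 0.0330), and without LDKO 1 its change was 0.11 (adjusted p = 0.799). In such a fit the remaining LDKO library is assumed to vary like the other genotypes. The libraries of LTKOFstL/L lay wholly above those of LDKO in 3 members, Rpl30, Rps27l and Rps4l, against 25.2% of all tested genes. For Rpl30 this rested on 0.1819 in LTKOFstL/L 1 against 0.1811 in LDKO 1, and for Rps27l on 0.0324 in LTKOFstL/L 1 against 0.0311 in LDKO 1, so for these genes the nearest libraries were practically level. They lay wholly below in 3 members, among them Rpl3 and Rps12, against 24.3%. Each comparison shares libraries with the others, so these values are not independent of those against Control.

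**Figure D4:**
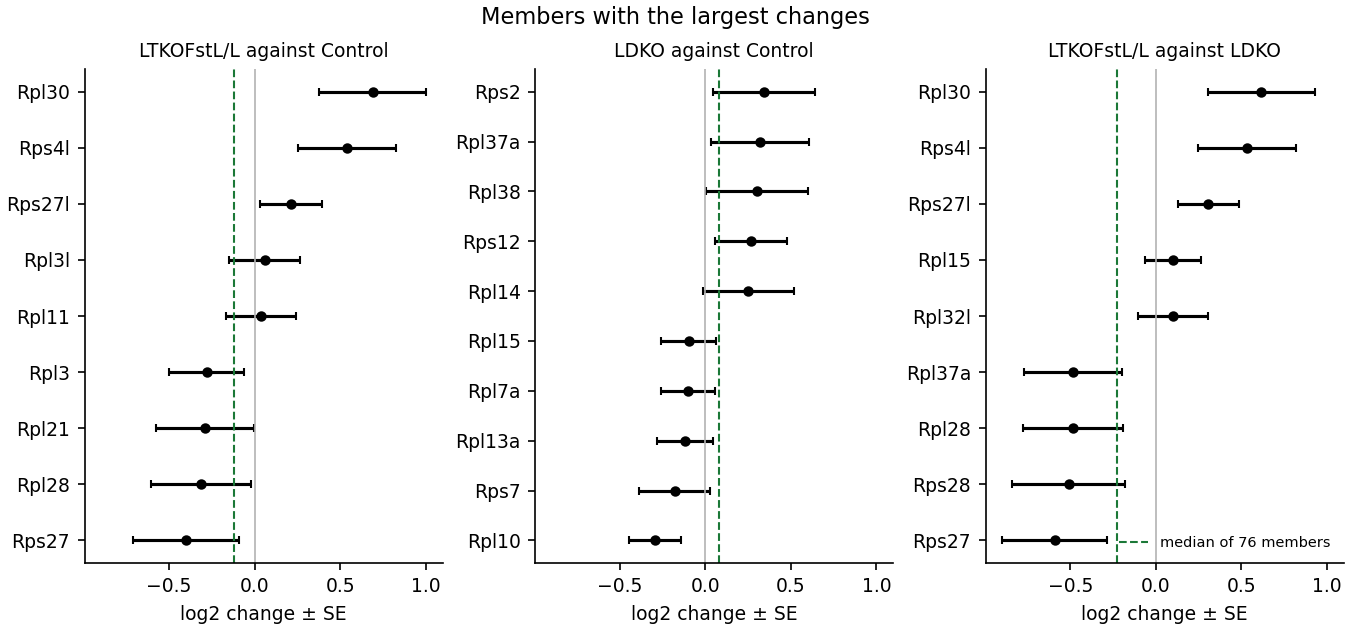
Log2 change with its standard error (n = 2 libraries each) for the members with the largest positive and negative changes in each comparison, at most 5 in each direction, with the median of the 76 members as a dashed line. Rpl30 lies highest in both comparisons of LTKOFstL/L (0.69 against Control and 0.62 against LDKO), and no member passed the test.

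The 4 members that departed from the common pattern were looked at library by library. Rpl30 (ENSMUSG00000058600, GRCm38 chromosome 15, 34440505 to 34443640) was lowest in LDKO 2 at −0.79 and highest in LTKOFstL/L 2 at 0.44. Rps4l (chromosome 6, 148354656 to 148355598), annotated as a transcribed processed pseudogene related to Rps4x, stood at 0.36 and 0.34 in LTKOFstL/L, 0.01 and −0.37 in LDKO, and −0.01 and −0.36 in Control. It was the only tested member at a log2 level between 4 and 8. Rps27l (chromosome 9, 66946086 to 66949516), a paralogue of Rps27 and a target of the tumour suppressor p53, stood at 0.03 and 0.24 in LTKOFstL/L, 0.03 and −0.37 in LDKO, and −0.12 and −0.03 in Control. Rpl10 (chromosome X, 74270812 to 74273135) was highest in Control 1 at 0.25. Of the 76 members, 5 were highest in a LTKOFstL/L library: Rpl30, Rps4l, Rps27l, Rpl15 and the processed pseudogene Rpl32l.

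**Figure D5:**
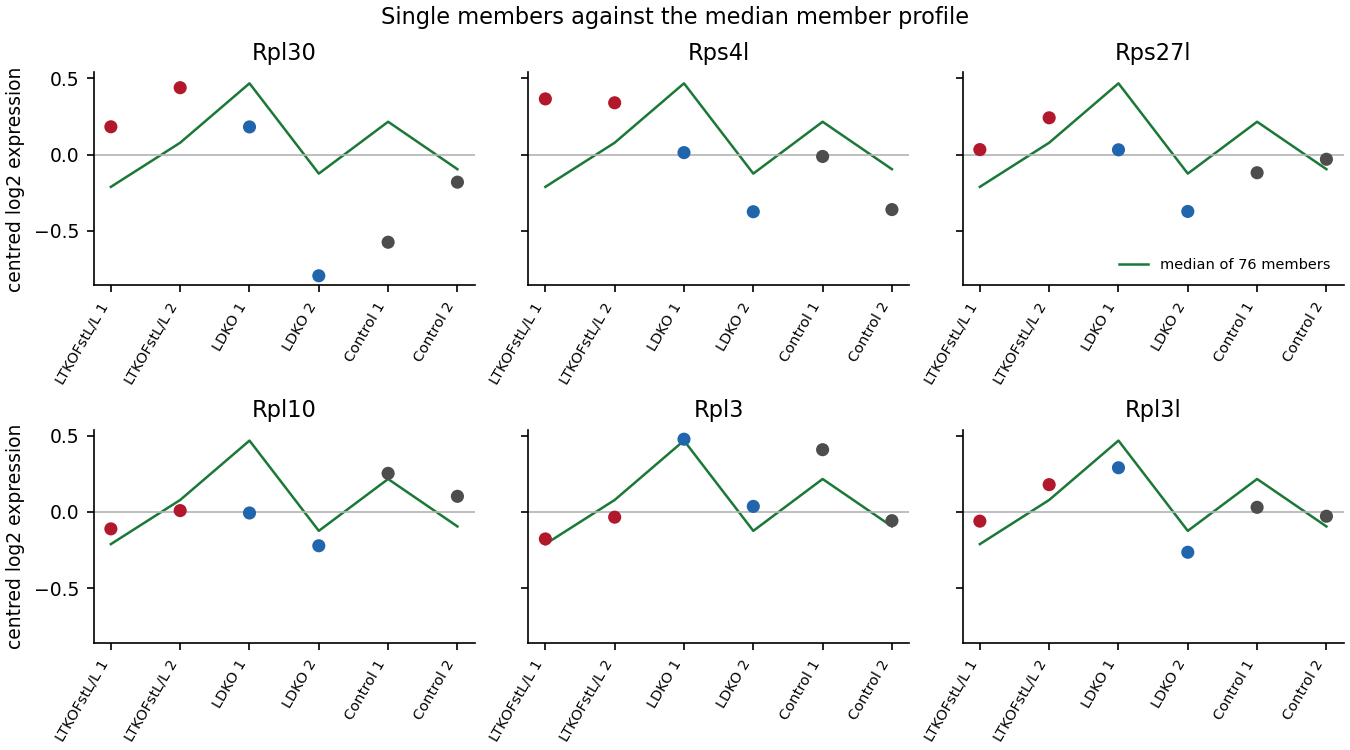
Centred log2 expression by library (points, coloured by genotype) of Rpl30, Rps4l, Rps27l and Rpl10, the members least like the others, and of Rpl3 and its muscle form Rpl3l; the line is the median of the 76 members. Rpl30 lies at −0.79 in LDKO 2, and Rps4l stands at 0.36 and 0.34 in LTKOFstL/L, above its value in every other library.

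Paralogues of several members were set against them library by library. Rpl3l stood at −0.06 and 0.18 in LTKOFstL/L, 0.29 and −0.27 in LDKO, and 0.03 and −0.03 in Control. Rpl3 stood at −0.18 and −0.04 in LTKOFstL/L, 0.48 and 0.04 in LDKO, and 0.41 and −0.06 in Control. The difference Rpl3l minus Rpl3, relative to its own baseline, was 0.12 and 0.21 in LTKOFstL/L, −0.19 and −0.30 in LDKO, and −0.38 and 0.03 in Control. The muscle form was thus relatively high against Rpl3 in both LTKOFstL/L libraries, though neither gene passed the test.

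For Rps27l minus Rps27 the difference was 0.47 and 0.23 in LTKOFstL/L, −0.73 and −0.36 in LDKO, and −0.59 and 0.06 in Control. For Rps4l minus Rps4x the difference was 0.47 and 0.31 in LTKOFstL/L, −0.21 and −0.30 in LDKO, and −0.15 and −0.33 in Control. In these 3 pairs both LTKOFstL/L libraries lay above every other library. The same held for Rpl22l1 minus Rpl22, at 0.26 and 0.20 in LTKOFstL/L, −0.49 and −0.11 in LDKO, and 0.04 and −0.08 in Control. It did not hold for Rpl7l1 minus Rpl7, at 0.16 and 0.18 in LTKOFstL/L, −0.35 and 0.18 in LDKO, and 0.04 and 0.03 in Control. In contrast, Rpl36al minus Rpl36a stayed between −0.07 and 0.09 in every library. Rpl36a and Rpl36al thus kept nearly 1 ratio. Nor did it hold for Rpl39l minus Rpl39, at 0.97 and 0.33 in LTKOFstL/L, −1.10 and −1.36 in LDKO, and −0.62 and 1.89 in Control. Rps27l and Rps4l by themselves lay wholly above both other genotypes in LTKOFstL/L. Among all tested genes, 25.2% lay wholly above Control in LTKOFstL/L and 25.2% wholly above LDKO. How often other gene pairs separate in this way was not computed. The differences within pairs were not tested.

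Rpl39l, a form of Rpl39 known from testis, was too low to test. It stood at 0.83 and 0.50 in LTKOFstL/L, −0.72 and −1.58 in LDKO, and −0.50 and 1.76 in Control, so both Control libraries differed by more than 2 log2 units. It was the only member in the authors' deposited table of differential genes for LDKO against Control, which lists 1378 genes and gives it a log2 fold change of −1.78 and a corrected p of 0.0277. The authors' deposited tables of 2176 genes for LTKOFstL/L against Control and of 2421 genes for LTKOFstL/L against LDKO held 0 members. Rpl6l, also untested, stood at −0.58 and −0.42 in LTKOFstL/L, 0.78 and 0.55 in LDKO, and 0.42 and −0.64 in Control.

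Several members are known for roles in regulation or disease. Rps6, whose protein is phosphorylated by kinases downstream of mTORC1, stood at −0.09 and 0.03 in LTKOFstL/L, 0.30 and −0.03 in LDKO, and 0.20 and −0.04 in Control. Rpl5 and Rpl11 bind Mdm2 when ribosome assembly is disturbed. Their changes in LTKOFstL/L against Control were −0.19 ± 0.19 for Rpl5 and 0.04 ± 0.21 for Rpl11. Rps19, mutated in Diamond-Blackfan anaemia in humans, stood at −0.22 and 0.12 in LTKOFstL/L, 0.48 and −0.19 in LDKO, and 0.31 and −0.12 in Control. Rps27a, made as a fusion with ubiquitin, had a change of −0.06 ± 0.20 in LTKOFstL/L against Control, and Rpl13a, known in human cells as part of an inhibitor of translation, one of −0.15 ± 0.16. The libraries of these genes other than Rpl13a overlapped between LTKOFstL/L and Control.

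Reads of ribosomal protein genes can be shared with their many processed copies. The table held 277 pseudogene symbols of the Rpl and Rps families, of which 201 were above the floor and 93 entered the test. How such reads were counted is not given in the sources used here, so the values of single members, above all Rps4l, Rpl32l and Rpl6l, are uncertain to that extent.

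Other genes of the translation machinery were counted from gene lists. The 9 other cytosolic ribosomal proteins, among them Rplp0, Rplp1 and Rpsa, had medians of −0.03 in LTKOFstL/L against Control, 0.06 in LDKO against Control and −0.07 in LTKOFstL/L against LDKO, and 0 passed the test in each. Rplp1 and Rplp0, proteins of the ribosomal stalk, had the largest changes of these in LTKOFstL/L against Control, at 0.37 and −0.32. The 20 other genes with TOP mRNAs, such as translation elongation factors, had medians of −0.13, −0.05 and −0.13 in the same order of comparisons, and 0 passed. Naca, a chaperone of nascent chains, came nearest, at −0.48 and −0.55 in LTKOFstL/L, 0.07 and 0.19 in LDKO, and 0.17 and −0.07 in Control. Its change was −0.65 in LTKOFstL/L against LDKO (limma adjusted p = 0.0776).

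The 35 ribosome biogenesis genes, which make and process ribosomal RNA, had medians of −0.26 in LTKOFstL/L against Control, 0.13 in LDKO against Control and −0.41 in LTKOFstL/L against LDKO, and 0 passed in each. Against LDKO, 2 of the 35 had a higher mean in LTKOFstL/L. Ppan, a factor of large subunit assembly, stood at −0.45 and −0.43 in LTKOFstL/L, against 0.63 and 0.28 in LDKO, with a change of −0.90 (limma adjusted p = 0.0510). Wdr43, a factor of ribosomal RNA processing, had a change of −0.80 (adjusted p = 0.0507). For Ppan, both LTKOFstL/L libraries lay below 0 and both LDKO libraries above it.

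Among regulators of mTORC1 and of TOP translation, 19 of 20 listed genes were tested. Ddit4, an inhibitor of mTORC1 induced by stress, fell in LTKOFstL/L against Control, at −2.57 and −2.14 in LTKOFstL/L against 1.01 and 0.17 in Control. Its change was −2.95 ± 0.35 (SE, n = 2 each; limma adjusted p = 0.0106), and it was the only gene of the list that passed there. Against LDKO, 3 genes fell in LTKOFstL/L and 0 rose. They were Sesn1, a stress-induced inhibitor of mTORC1, with a change of −2.87 (adjusted p = 0.0141), Ddit4 with −2.59 (adjusted p = 0.0181) and Eif4ebp1, a repressor of cap-dependent translation, with −1.76 (adjusted p = 0.0406). In LDKO against Control 0 of the 19 passed. The kinase itself, Mtor, had a change of −0.40 ± 0.16 in LTKOFstL/L against Control (adjusted p = 0.294). It stood at −0.42 and −0.39 in LTKOFstL/L, 0.39 and 0.17 in LDKO, and 0.13 and −0.13 in Control. Its difference was thus larger against LDKO than against Control.

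The 78 mitochondrial ribosomal protein genes serve translation inside mitochondria. Their library medians were −0.01 and 0.22 in LTKOFstL/L, 0.23 and −0.13 in LDKO, and −0.02 and −0.12 in Control. Their median change was 0.17 in LTKOFstL/L against Control, with 66 of 78 higher, and 0 passed. In LDKO against Control the median was 0.13 and in LTKOFstL/L against LDKO it was 0.05, with 0 passing in each. The cytosolic genes had a negative median in LTKOFstL/L against Control, where the mitochondrial genes had a positive one. The cytosolic median was 0.03 without Control 1 and 0.02 without LTKOFstL/L 1, so this contrast of signs depended on single libraries. For the mitochondrial genes such medians were not computed.

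Markers of other cell types were read beside these values. Adipocyte markers had medians of 1.74 and 0.73 in LTKOFstL/L, −0.86 and 0.07 in LDKO, and −0.35 and −0.15 in Control. Of these 8 markers, 1 rose in LTKOFstL/L against Control and 1 against LDKO. Leukocyte markers had medians of −0.07 and 0.06 in LTKOFstL/L, 0.02 and −0.45 in LDKO, and 0.14 and 0.15 in Control. Muscle markers had medians of −0.08 and 0.18 in LTKOFstL/L, 0.25 and −0.18 in LDKO, and −0.04 and −0.13 in Control. The median of the muscle markers was highest in LDKO 1, the highest library of most members, and lowest in LDKO 2. Single muscle markers were mixed. Acta1, Mylpf and Pvalb were highest in LTKOFstL/L 2 and Myh4 in Control 1, and the others in LDKO 1. Mb, Myh1 and Myh2 stood above 0 in LDKO 2, at 0.10, 0.22 and 0.24, and were lowest in Control 2. Erythroid markers had medians of 0.01 and 0.02 in LTKOFstL/L, 0.19 and −0.47 in LDKO, and 0.13 and −0.32 in Control. The median of library 1 thus lay above that of library 2 in LDKO and in Control. The same held for the members, the muscle markers and the acinar markers. Single erythroid markers were mixed. Alas2 went the other way, at −0.27 and 0.02 in LDKO and at −0.36 and −0.02 in Control. Schwann cell markers had medians of 0.28 and −0.17 in LTKOFstL/L, −1.03 and −0.11 in LDKO, and 0.69 and 0.09 in Control. Fibroblast and tendon markers had medians of 0.20 and −0.09 in LTKOFstL/L, −0.65 and −0.32 in LDKO, and 0.09 and 0.22 in Control. LDKO 1, the highest library of most members, thus had the lowest median of the Schwann and of the fibroblast markers. Single fibroblast markers were mixed. Col1a1, Dpt, Fmod and Tnmd were lowest in LDKO 2, and Pdgfra, Dcn and Lum in LDKO 1. Endothelial markers had medians between −0.17 in LDKO 1 and 0.16 in Control 2, and satellite cell markers between −0.24 in Control 1 and 0.17 in LTKOFstL/L 1. In the erythroid, Schwann, fibroblast, endothelial and satellite cell lists, 2 fibroblast markers rose in LTKOFstL/L against LDKO. In these lists 0 markers passed otherwise. In bulk muscle, fewer cells of a type and less RNA per cell cannot be told apart, and the part of cell makeup in the ribosomal protein values was not tested.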

How the data were processed

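RNA-seq was made from total RNA of 6 muscle samples, extracted with TRI Reagent and prepared with a SMARTer kit, per the labels' protocols. The submitters' processing notes name mm10 as the genome build. The aligner is not given in the sources used here, and neither are the read counting and the normalization. As judged from the values, the deposited table holds log2 values of library-scaled reads with a floor, centred by the authors on each gene's median over the 6 libraries; depth is unknown. Levels were bracketed from the rounding of the stored numbers. The authors' deposited lists of differential genes give log2 differences and corrected p-values, used only for the members they hold.

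The 16326 genes at a log2 level of at least 4 (16 scaled units) in at least 2 libraries were tested with limma 3.58.1 in R 4.3.3, with a mean per genotype, 3 residual degrees of freedom, a robust variance prior in 3 strata of level, and Benjamini-Hochberg adjustment over all tested genes at 0.05. The fit was tested on simulated data. Gene coordinates and transcript lengths came from GENCODE M21 (GRCm38), which matched 16306 of the tested genes. Python 3.11.15 and pandas 2.3.3 were used for the rest.

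The members and the gene lists were chosen with earlier results of these data known. Named were, in each comparison, the 5 members with the largest positive and the 5 with the largest negative change, paralogue pairs, 6 members with known roles, and of other lists the genes that passed and those with the largest changes; Mtor, Wdr43 and genes named for non-overlapping libraries were added after their values were seen. Alternatives covered the level filter, the prior, the scaling, the samples and genes in the fit, the threshold, and each library left out. Some items are not reported here.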

Additional observations from a re-analysis of the deposited data

How the results depend on the processing

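Over 16 alternatives for each comparison, the count of ribosomal protein genes passing the test was 0 throughout in LTKOFstL/L against Control and in LDKO against Control. In LTKOFstL/L against LDKO it was 0 to 1 over the fits that left out a library, and 0 under the other alternatives. The gene that passed without LDKO 1 was Rpl30 and without LDKO 2 Rps2. With a library left out, the median log2 change of the members was −0.29 to 0.03 in LTKOFstL/L against Control, with 0.03 without Control 1, 0.02 without LTKOFstL/L 1 and −0.29 without Control 2. It was −0.19 to 0.39 in LDKO against Control, negative without LDKO 1 (−0.19) and without Control 2 (−0.06). It was −0.51 to 0.06 in LTKOFstL/L against LDKO, positive without LDKO 1. The pooled SD of the member median between libraries of a genotype was 0.30. With quantile normalization the medians were −0.14, 0.03 and −0.18 in these comparisons; the cause was not tested. With a replicate block the counts were 0 in each comparison. The medians stayed at −0.12, 0.08 and −0.22, which this block cannot change, because each genotype has 1 library of each replicate number. Whether the replicate numbers pair the samples could not be settled from the values. Over the tested genes, deviations of same-numbered libraries from their genotype means had a correlation of −0.16 between LTKOFstL/L and LDKO. It was −0.04 between LTKOFstL/L and Control and 0.17 between LDKO and Control. Such correlations cannot exclude a pairing. Among the members, library 1 lay above library 2 in all 76 in LDKO, in 73 in Control and in 1 in LTKOFstL/L. Of 942 values for 63 gene results, 940 kept their side of the threshold, and 41 gene results took the other sign under some alternative without passing. With 2 libraries a genotype and a standard error of 0.15 to 0.33, changes of the size of the medians cannot be resolved for single genes.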
